A study of Mus musculus with 8 samples.

Results

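The SLC25 mitochondrial carriers were examined in ventricles of mice with an inducible cardiac deletion of Rbx2. The members are the protein-coding genes of the deposited table whose GENCODE M21 symbol begins with Slc25a. There are 47 of them among 35275 genes in the table, and 1 further family symbol, the pseudogene Slc25a5-ps, was left out. Of the 47 members, 38 had a mean of at least 0.5 FPKM over all libraries and were tested. FPKM counts fragments relative to gene length and to the fragments counted in the library.

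The study compared 4 RNA-seq libraries labelled RBX2iCKO with 4 labelled WT, all from heart ventricle of tamoxifen-treated mice. In the RBX2iCKO hearts Rbx2 was deleted in adults with Mer-Cre-Mer, a Cre that tamoxifen switches on and that the αMHC promoter restricts to cardiomyocytes. The deleted gene, Rnf7, codes for RBX2, which recruits ubiquitin-conjugating enzymes to cullin 5. The titles of both groups hold the letters MCM, the genotype label does not say whether the WT animals carried Cre, and ages are not stated in the labels. Esr1, whose ligand-binding domain is part of Mer-Cre-Mer, stood at 0.203 to 2.06 FPKM in WT and at 266 to 391 FPKM in RBX2iCKO. Loss of Rbx2 and presence of the transgene cannot be told apart in these libraries.

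Carriers of the SLC25 family sit mainly in the inner mitochondrial membrane and exchange metabolites between cytosol and matrix. Each is built from repeated units of paired membrane helices and usually swaps 1 substrate against another. In heart muscle they bring in ADP, phosphate, acylcarnitines and reducing equivalents, and they send out ATP. Several substrates are served by related carriers that differ in tissue distribution, such as the ADP/ATP carriers Slc25a4 of muscle and Slc25a5 of dividing and non-muscle cells.

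Rnf7 was at 35.3 to 40.7 FPKM in WT and at 6.86 to 7.53 FPKM in RBX2iCKO (log2 difference -2.23, SE 0.07, limma adjusted p = 5.8e-07), and at a log2 difference of -2.47 after scaling. The libraries held 18513924 to 23043686 counted fragments. Mitochondrial-encoded transcripts took 22.51% to 25.05% of them in WT and 14.6% to 18.87% in RBX2iCKO. The median of all tested genes was higher in RBX2iCKO by 0.21 on the log2 scale as deposited and by 0.02 after median-of-ratios scaling. Counts of calls and carrier differences are therefore given both as deposited and after that scaling. The labels call the cells cardiomyocytes, while the RNA came from minced ventricle, and the 12 cardiomyocyte markers summed to 40584 to 42369 FPKM in WT and 37287 to 44040 FPKM in RBX2iCKO, with 1 higher and 2 lower as deposited. After scaling 0 of the 12 were higher and 3 lower, 11 were below zero and their median was -0.26, beside -0.11 for the carriers. Fibroblast markers were present too and were higher in RBX2iCKO, with 10 of 11 rising and none falling as deposited, 9 of 11 rising after scaling, and a summed level of 938 to 1392 FPKM in WT against 1656 to 2584 FPKM in RBX2iCKO. Endothelial markers (6 of 10 higher as deposited, 0 of 10 scaled) summed to 520 to 708 FPKM in WT and 791 to 942 FPKM in RBX2iCKO, and macrophage markers (4 of 10 higher, 1 scaled) to 119 to 241 FPKM and 205 to 403 FPKM. Mural markers (2 of 9 higher and 1 lower as deposited, 1 and 1 scaled) summed to 301 to 387 FPKM and 247 to 408 FPKM, and adipocyte markers (0 of 6 tested called in either analysis) to 15.5 to 36.1 FPKM and 17.7 to 34.8 FPKM. No marker found in the table was at 0 in all libraries, and the part of these cells in the carrier results was not tested. In ventricle RNA, fewer cells of a type and less RNA per cell cannot be told apart.

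Lower in both analyses were Slc25a20 for acylcarnitine, Slc25a42 for coenzyme A, Slc25a3 for phosphate, Slc25a22 for glutamate, Slc25a11 for oxoglutarate and Slc25a26 for S-adenosylmethionine. The aspartate/glutamate carrier Slc25a12 was also lower in both, but its paralog Slc25a13 was called higher as deposited and not called after scaling. The carriers that rose in both analyses were the ADP/ATP carrier Slc25a5, the ATP-Mg/phosphate carrier Slc25a23, Slc25a30 and Slc25a45. As deposited, 10 of 38 tested members (26.3%) were higher, against 33.5% of all tested genes. Lower values were called for 7 members (18.4%), against 3.52% of all tested genes. After scaling, 4 members (10.5%) were higher, against 8.78% of all genes, and 11 (28.9%) were lower, against 10.9%. With mitochondrial-encoded genes removed, 4 members were higher, against 9.71% of all genes, and 9 lower, against 7.58%. All 7 members lower as deposited were among the 11 of the scaled values, and 4 of the 10 higher members kept their call. The median difference of the 38 members was 0.1 as deposited, where that of all genes was 0.21, and -0.11 after scaling, where that of all genes was 0.02. As deposited, the groups did not overlap for 15 members. In 8 of these (21.1%) RBX2iCKO was higher, against 34.0% of all genes, and in 7 (18.4%) it was lower, against 3.79%. Leaving out 1 library lowered the count of higher members to 5 without RBX2iCKO replicate 1 and to 6 without WT replicate 2, WT replicate 4 or RBX2iCKO replicate 4. The count of lower members was 3 without WT replicate 3 and 4 without WT replicate 1, WT replicate 4 or RBX2iCKO replicate 1. The numbers in the titles form a pair of series, WT replicates 1 and 2 with RBX2iCKO replicate 1 against the other 5 libraries, and with that series as a covariate 6 members were higher and 7 lower as deposited. After scaling, higher members numbered 2, Slc25a5 and Slc25a23, without WT replicate 1, 3 or 4 or RBX2iCKO replicate 1 or 2, and lower members numbered 9 to 11 over the 8 libraries left out.

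By substrate, the median log2 difference as deposited was 0.31 for adenine nucleotides and phosphate and 0.45 for the carriers related to uncoupling proteins. It was 0.01 for pyrimidine nucleotides and cofactors, -0.03 for carnitine and related carriers, 0.03 for amino acids and 0.03 for di- and tricarboxylates. Iron and glutathione carriers had a median of 0.1 and those of unsettled substrate 0.13. After scaling these medians were 0.11, 0.28, -0.22, -0.23, -0.19, -0.2, -0.12 and -0.12 in the same order, beside 0.02 for all tested genes. The first and second of these groups lay above the median of all genes in both analyses, and the other 6 below it. Each group held only 3 to 8 tested members, with 7 in the first and 3 in the second, where Ucp2 and Ucp3 were not counted. In the first group the abundant Slc25a4 and Slc25a3 were below zero, at -0.2 and -0.31 as deposited and -0.45 and -0.57 after scaling. They were the only 2 of its members below zero as deposited.

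**Figure D1:**
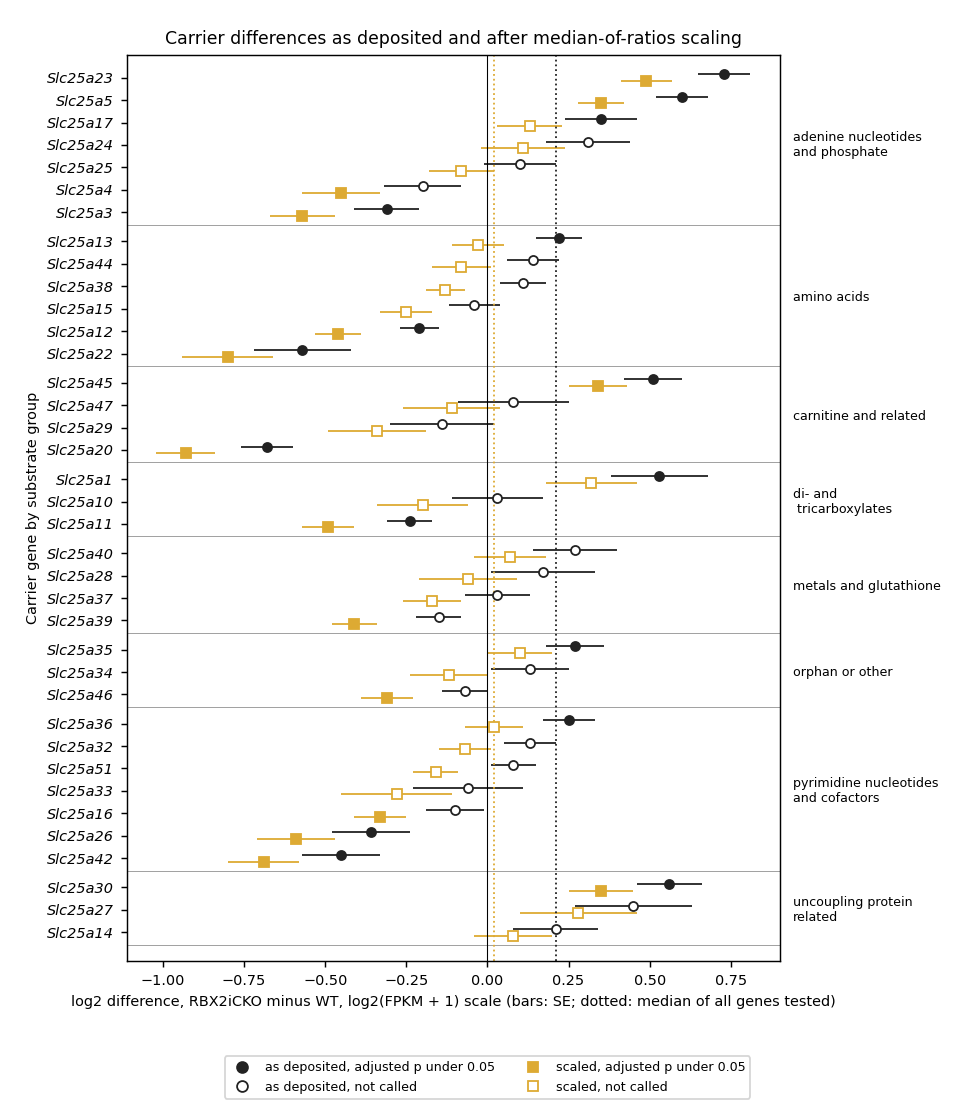
Log2 difference (RBX2iCKO minus WT, log2(FPKM + 1) scale) of the tested carriers reported here by substrate group, as deposited (circles) and after median-of-ratios scaling (squares), with SE bars, filled where the limma adjusted p was under 0.05. Dotted lines mark the medians of all tested genes, 0.21 and 0.02, and the square of every carrier lies to the left of its circle.

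Abundance was very uneven within the family. The 47 members together made up 3151 to 3725 FPKM in WT and 2631 to 3328 FPKM in RBX2iCKO. Slc25a4 alone supplied 60.4% to 62.8% of the family's FPKM in WT and 53.7% to 61.0% in RBX2iCKO. After it in WT came Slc25a3, Slc25a11, Slc25a5 and Slc25a20, and these 5 genes held 87.1% to 88.3% of the family's FPKM in WT. The 5 most abundant members of each RBX2iCKO library held 84.2% to 87.2%, with Slc25a20 replaced by Slc25a13 in replicates 1, 2 and 4 and by Slc25a34 in replicate 3. By fragments, the members with recovered counts took 0.71% to 0.837% of each WT library and 0.587% to 0.733% of each RBX2iCKO library.

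**Figure D2:**
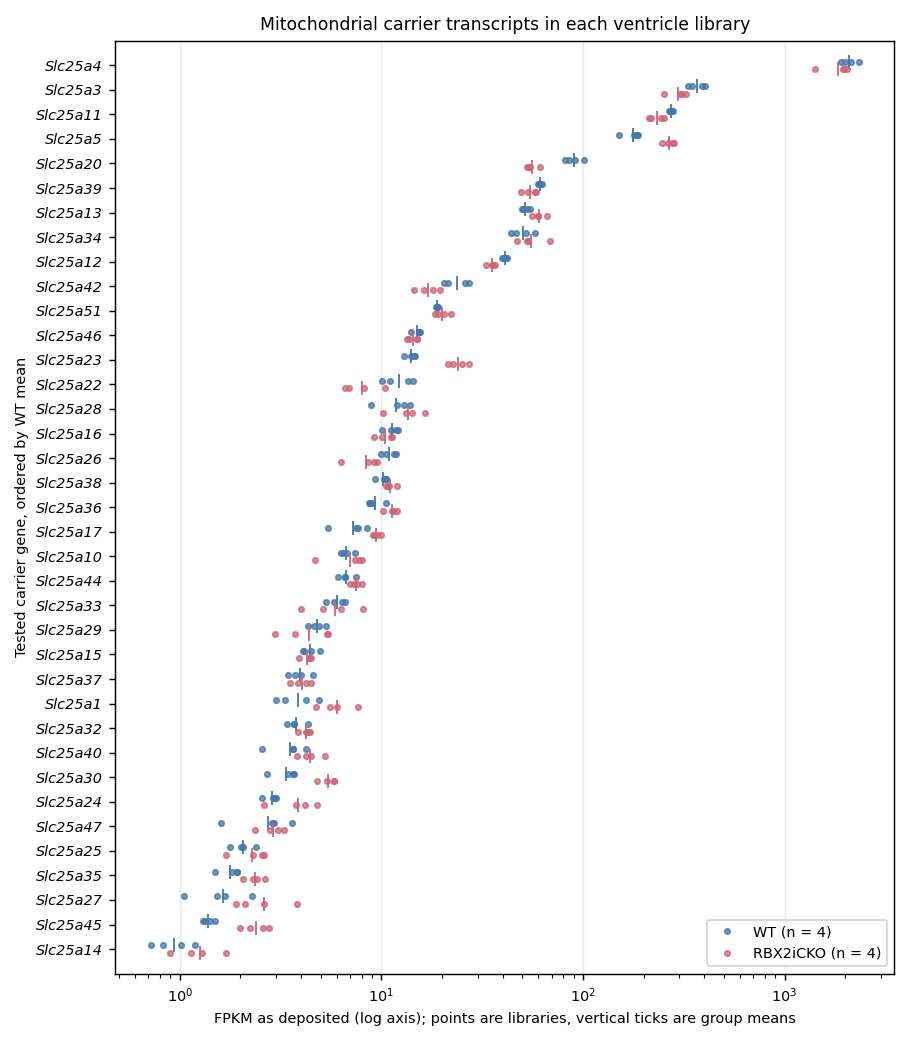
FPKM as deposited (log axis) of each tested carrier reported here in the 4 WT (blue) and 4 RBX2iCKO (red) libraries, ordered by the WT mean, with vertical ticks at group means. Levels span from 0.938 FPKM for Slc25a14 to 2096 FPKM for Slc25a4 in WT, and the groups stand apart for Slc25a20, Slc25a23, Slc25a5 and Slc25a45 among others.

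The calls differed along that range of abundance. Ordered by mean FPKM, the upper 13 tested members (14.7 to 1969 FPKM) had 3 higher and 5 lower as deposited and 2 higher and 8 lower after scaling. Of the 3149 genes tested in the same range, 29.4% were higher and 8.1% lower as deposited, and 7.84% were higher and 25.9% lower after scaling. The middle 13 members (4.59 to 12.7 FPKM) had 4 higher and 2 lower as deposited and 0 higher and 3 lower after scaling. Of the 3796 genes in that range, 38.8% were higher and 2.37% lower as deposited, and 7.8% and 8.96% after scaling. The lowest 12 members (1.1 to 4.41 FPKM) had 3 higher and 0 lower as deposited and 2 higher and 0 lower after scaling. Of the 3947 genes in that range, 35.7% were higher and 1.6% lower as deposited, and 10.9% and 3.7% after scaling. Median differences after scaling were -0.41, -0.13 and 0.08 in these 3 classes, and -0.12, 0.01 and 0.08 for all genes in the same ranges. The median of the most abundant class was below that of genes of like abundance, and the least abundant class had the same median as its range.

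**Figure D3:**
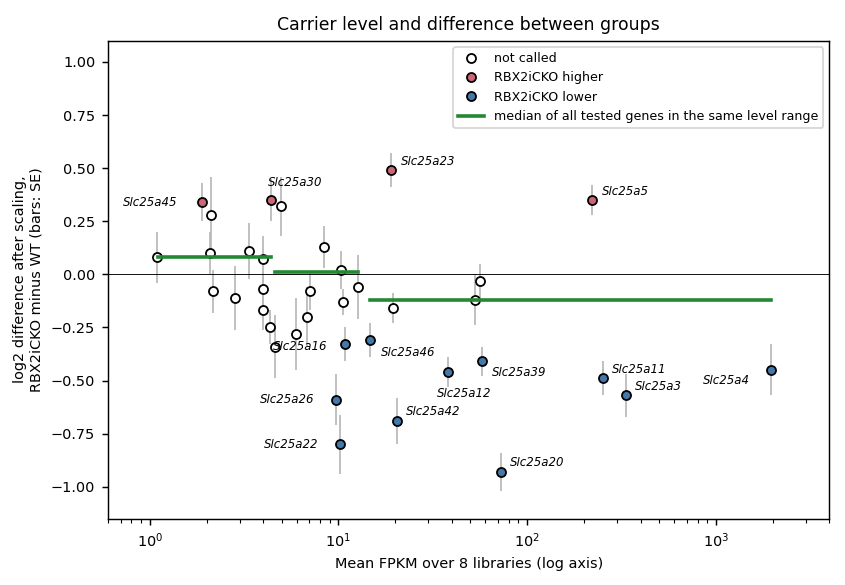
Log2 difference after median-of-ratios scaling (RBX2iCKO minus WT, SE bars) against mean FPKM over 8 libraries (log axis) for the tested carriers reported here. Called members are coloured and named, and green lines give the median of all tested genes in the range of each abundance class, at 0.08, 0.01 and -0.12. Of the 13 members from 14.7 FPKM upward, 8 are lower and 2 higher.

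Carriers of adenine nucleotides and phosphate moved in both directions. Of 9 members 7 were tested, and 3 were higher and 1 lower as deposited, against 2 and 2 after scaling. Slc25a4, the ADP/ATP carrier of heart and skeletal muscle (mm10 chromosome 8, 46206797 to 46211284, minus strand), was at 2142, 1902, 2340 and 2001 FPKM in WT replicates 1 to 4 and at 1413, 1946, 2030 and 1977 FPKM in RBX2iCKO replicates 1 to 4, the order used for all values below. RBX2iCKO replicate 1 lay far under the other 3 libraries of its group, and the groups overlapped. The log2 difference of -0.2 (SE 0.12, limma adjusted p = 0.226) did not pass, and after scaling it was -0.45 (SE 0.12, adjusted p = 0.0318). That scaled call was lost without any 1 of the WT replicates 1, 2, 3 or 4 or without RBX2iCKO replicate 2 (adjusted p up to 0.0815). With quantile normalization in place of scaling Slc25a4 did not pass (log2 -0.14, limma adjusted p = 0.367). Slc25a5, the ADP/ATP carrier of dividing and non-muscle cells (chromosome X, 36795651 to 36798807, plus strand), was at 188, 151, 186 and 180 FPKM in WT and at 277, 263, 283 and 248 FPKM in RBX2iCKO. Every RBX2iCKO library exceeded every WT library. Slc25a5 rose 1.52-fold as a ratio of means (log2 0.6, SE 0.08, adjusted p = 0.00218), and it also rose after scaling (log2 0.35, adjusted p = 0.00978). Slc25a31, the ADP/ATP carrier of germ cells, was under the filter at 0.109 to 0.798 FPKM.

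The coding regions of Slc25a4 and Slc25a5, 894 bases each in GENCODE M21, were 77.4% identical, and their longest identical run was 20 bases. Slc25a5 shared a run of 97 bases with the pseudogene Slc25a5-ps, which was listed at 0 FPKM in all libraries. Windows of 60 coding bases show how far reads of the genes can be told apart. In each pair the capitals mark bases at which the genes differ, the window with the fewest differences (6, coding bases 62 to 121) coming before the window with the most (24, coding bases 397 to 456).
Slc25a4, fewest differences: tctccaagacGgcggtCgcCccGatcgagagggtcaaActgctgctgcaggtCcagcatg
Slc25a5, fewest differences: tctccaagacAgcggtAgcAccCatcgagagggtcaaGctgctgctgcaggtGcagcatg
Slc25a4, most differences: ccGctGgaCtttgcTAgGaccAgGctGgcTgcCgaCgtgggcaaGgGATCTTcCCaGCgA
Slc25a5, most differences: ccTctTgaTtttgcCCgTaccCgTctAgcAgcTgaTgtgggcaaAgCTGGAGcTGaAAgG

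The balance of the ADP/ATP carriers was set apart between the groups without dependence on library scaling. Slc25a4 exceeded Slc25a5 11.4, 12.6, 12.5 and 11.1 times in the WT libraries and 5.1, 7.4, 7.17 and 7.96 times in the RBX2iCKO libraries. All 4 RBX2iCKO ratios were under all 4 WT ratios. The mean log2 ratio was 3.57 ± 0.09 in WT and 2.77 ± 0.29 in RBX2iCKO (± SD of 4 libraries), a difference of -0.8 (SE 0.15, two-sided exact permutation p = 0.0286, adjusted p = 0.0571 over 8 pairs of related carriers). Slc25a5 made up 7.35% to 8.26% of the FPKM of the 3 ADP/ATP carriers in WT and 11.2% to 16.4% in RBX2iCKO. The summed level of those carriers, 2054 to 2527 FPKM in WT and 1690 to 2313 FPKM in RBX2iCKO, overlapped between the groups.

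Slc25a3, the phosphate carrier that also brings copper into the matrix, was at 388, 332, 405 and 347 FPKM in WT and at 251, 310, 303 and 323 FPKM in RBX2iCKO. The groups did not overlap, though WT replicate 2 lay close to RBX2iCKO replicate 4. It fell 1.24-fold (log2 -0.31, SE 0.1, limma adjusted p = 0.0351; scaled log2 -0.57, adjusted p = 0.00473). As deposited the call was lost without WT replicate 1, 3 or 4 or without RBX2iCKO replicate 1 or 2 (adjusted p up to 0.0869), and after scaling it held with each of the 8 libraries left out. Slc25a23, a calcium-regulated carrier that exchanges ATP-Mg for phosphate, was at 14.7, 14.1, 12.9 and 14.5 FPKM in WT and at 27.1, 25.1, 22.8 and 21.5 FPKM in RBX2iCKO. No values overlapped. It rose 1.71-fold (log2 0.73, SE 0.08, adjusted p = 0.00118; scaled log2 0.49, adjusted p = 0.00454), the smallest p in the family as deposited. The related Slc25a24 stood at 2.86 FPKM ± 0.198 in WT libraries and 3.85 FPKM ± 0.917 in RBX2iCKO libraries (mean ± SD, n = 4 each) and Slc25a25, which overlaps Naif1 on the opposite strand by 989 bases, at 2.06 ± 0.246 and 2.29 ± 0.421, and neither passed as deposited or after scaling. Slc25a17, a peroxisomal carrier of coenzyme A and nucleotides, was at 8.52, 5.44, 7.46 and 7.69 FPKM in WT and at 9.5, 9.11, 9.23 and 10 FPKM in RBX2iCKO. It rose as deposited (log2 0.35, adjusted p = 0.0383) and did not pass after scaling (log2 0.13, adjusted p = 0.408). Its call was lost without WT replicate 3 or 4 or without any 1 of RBX2iCKO replicates 1, 2, 3 or 4 (adjusted p up to 0.0836), and with the title number series as a covariate (adjusted p = 0.0649). Slc25a41, a calcium-independent relative, was listed at 0 in 7 libraries.

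Genes that work beside ADP/ATP exchange, such as creatine kinases, adenylate kinases and porins of the outer membrane, were called in both directions. Of 11 tested of 12, 2 rose and 2 fell as deposited, and 1 rose and 5 fell after scaling. For this and the gene lists below, the shares of all tested genes were 33.5% higher and 3.52% lower as deposited. After scaling they were 8.78% higher and 10.9% lower. Ckb, the brain-type creatine kinase, rose 1.84-fold, from 28.5 FPKM ± 3.34 in WT to 52.3 FPKM ± 10.6 (SD, n = 4 each; limma adjusted p = 0.00368). Ckmt2, the mitochondrial creatine kinase of striated muscle, fell 1.16-fold, from 995 FPKM ± 25.5 in WT to 860 FPKM ± 60 (adjusted p = 0.0386), and both calls held after scaling. The other named partners were Ak3, 1.21-fold higher as deposited with no call after scaling, and Ak4, which fell 1.23-fold.

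Among the tested Slc25a members the largest fall was that of Slc25a20, while Ucp3, a carrier with another symbol, fell further (log2 -1.44 as deposited). Slc25a20 encodes the carnitine-acylcarnitine translocase, which carries long-chain acyl groups into the matrix for beta-oxidation (chromosome 9, 108662088 to 108684641, plus strand). Its levels were 101, 91.8, 85.3 and 81.7 FPKM in WT and 54.1, 54.9, 52.5 and 61.5 FPKM in RBX2iCKO. The lowest WT library was well above the highest RBX2iCKO library. Slc25a20 fell 1.61-fold (log2 -0.68, SE 0.08, limma adjusted p = 0.00142; scaled log2 -0.93, SE 0.09, adjusted p = 0.000697), and the call held with each of the 8 libraries left out, as deposited and after scaling. Slc25a45, which has been linked to carnitine synthesis, was at 1.31, 1.49, 1.42 and 1.33 FPKM in WT and at 2.77, 2.6, 1.99 and 2.24 FPKM in RBX2iCKO. It rose 1.73-fold without overlap (log2 0.51, SE 0.09, adjusted p = 0.00505), and after scaling the log2 difference was 0.34 (adjusted p = 0.0334). The scaled call was lost without WT replicate 1, 3 or 4 or without RBX2iCKO replicate 1, 2 or 4 (adjusted p up to 0.0861), and only 63 to 156 fragments per library lay behind these levels. With quantile normalization in place of scaling Slc25a45 did not pass. Slc25a29, first described as a carnitine carrier and known for basic amino acids, was at 4.8 FPKM ± 0.419 and 4.38 FPKM ± 1.24, and the liver-enriched Slc25a47 was at 2.75 ± 0.831 and 2.89 ± 0.407 (WT, then RBX2iCKO). Neither passed as deposited or after scaling, and Slc25a48, a choline carrier, was under the filter at no more than 0.0316 FPKM.

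Promoters are shown for Slc25a20, which fell the most of the tested Slc25a members, and Slc25a23, which rose with the smallest p. They are the 250 bases before the RefSeq transcription start (GRCm38.p6), which for Slc25a20 lies 48 bases inside the GENCODE gene. Capitals mark GC boxes, GGGCGG on either strand. The Slc25a20 window, chr9:108661886-108662135 on the plus strand, held 3 of them, and the Slc25a23 window, chr17:57059864-57060113 on the minus strand, held 1.
Slc25a20: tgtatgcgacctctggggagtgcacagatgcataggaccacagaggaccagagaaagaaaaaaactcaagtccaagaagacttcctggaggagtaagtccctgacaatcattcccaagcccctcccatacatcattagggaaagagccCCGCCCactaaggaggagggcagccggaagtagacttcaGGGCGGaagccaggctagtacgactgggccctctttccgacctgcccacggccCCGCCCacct
Slc25a23: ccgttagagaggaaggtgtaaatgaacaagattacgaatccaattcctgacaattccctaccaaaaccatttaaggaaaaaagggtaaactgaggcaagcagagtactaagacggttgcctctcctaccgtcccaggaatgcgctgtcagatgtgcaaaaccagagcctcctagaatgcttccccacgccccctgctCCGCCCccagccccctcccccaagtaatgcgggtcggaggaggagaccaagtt

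RefSeq windows were found for 36 of the 47 members, counting 1 per gene. A GC box was present in 24 of these 36, against 32.7% of 32851 windows of the same length, and in 6 of the 9 scaled-lower and all 4 scaled-higher members with a window. Member windows were those nearest the start of the GENCODE gene, while the 32851 were all RefSeq windows, without such a choice. These sets are not alike, here and for the motifs below, and the difference in share was not tested. The CCAAT box, CCAAT on either strand, was found in 16 of 36 members and 33.8% of all windows. The E-box CACGTG was found in 6 members, none of them called after scaling, and in 6.02% of all windows. The estrogen-related receptor element TCAAGGTCA was in 0 of 36 member windows and 0.387% of all windows, and the PPAR element, a direct repeat spaced by 1 base, was in 0 and 0.0335%. At such low rates 0 of 36 was likely in any case, and only exact letters in these windows were sought. Whether the members lack such sites cannot be told from these counts.

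Genes of the carnitine shuttle around Slc25a20 were called in both directions as deposited. Of 8 tested of 10 genes of the shuttle and of carnitine supply, 3 fell and 2 rose as deposited, and 4 fell and 0 rose after scaling. Cpt2, which re-forms acyl-CoA in the matrix, fell 1.71-fold, from 94.0 FPKM ± 4.87 in WT to 55.1 FPKM ± 4.5 (SD, n = 4 each; limma adjusted p = 0.000734). Crat, carnitine acetyltransferase, fell 1.58-fold and Acsl1, the main long-chain acyl-CoA synthetase of heart, fell 1.52-fold (adjusted p = 0.000985 and 0.00102), and these 3 also fell after scaling (log2 -1.01, -0.9 and -0.86). The risers as deposited were the peroxisomal Crot, 1.23-fold, and Cpt1a, 1.32-fold. Cpt1a codes for 1 of the enzymes that make acylcarnitine at the outer membrane before Slc25a20 acts, and was named after its values were seen. Neither passed after scaling. The list's median was -0.18 as deposited and -0.41 after scaling.

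Carriers of pyrimidine nucleotides and cofactors split into fallers tied to coenzyme A and S-adenosylmethionine and risers as deposited. All 8 members were tested, with 2 higher and 2 lower as deposited and 0 higher and 3 lower after scaling. Slc25a42, which brings coenzyme A into mitochondria, was at 20.4, 21.3, 26.1 and 27.2 FPKM in WT and at 16.2, 18.1, 14.5 and 19.6 FPKM in RBX2iCKO. The groups did not overlap. The WT libraries fell into a lower pair, replicates 1 and 2, and a higher pair, replicates 3 and 4, as the title number series divides them. Slc25a42 fell 1.39-fold (log2 -0.45, SE 0.12, limma adjusted p = 0.0183; scaled log2 -0.69, adjusted p = 0.00444), with each of the 8 libraries left out as well. Slc25a16, also linked to coenzyme A, was at 11.2, 10.1, 11.8 and 12.1 FPKM in WT and at 10.1, 11.2, 9.23 and 11.3 FPKM in RBX2iCKO. These groups overlapped, and Slc25a16 passed after scaling and not as deposited (log2 -0.33, adjusted p = 0.0167; -0.1 and 0.359 as deposited). It also passed with quantile normalization (adjusted p = 0.0281) and not with mitochondrial-encoded genes removed (adjusted p = 0.0555). Slc25a26, the S-adenosylmethionine carrier, was at 11.8, 11.6, 10.5 and 9.98 FPKM in WT and at 6.29, 9.47, 9.23 and 8.6 FPKM in RBX2iCKO. It fell 1.3-fold without overlap (log2 -0.36, adjusted p = 0.0413; scaled log2 -0.59, adjusted p = 0.0113). As deposited, its call was lost without any 1 of WT replicates 1, 2, 3 or 4 or without RBX2iCKO replicate 1 or 4 (adjusted p up to 0.0977). Its gene overlaps Lrig1 on the opposite strand by 144 bases, and without a stated strand setting the reads there cannot be told apart.

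Slc25a36, a pyrimidine nucleotide carrier, was at 8.72, 9.04, 10.6 and 8.82 FPKM in WT and at 11.3, 10.2, 11.5 and 12 FPKM in RBX2iCKO. Its groups overlapped at WT replicate 3. It rose as deposited (log2 0.25, limma adjusted p = 0.0376) and was at 0.02 after scaling (adjusted p = 0.897), and the first call was lost without WT replicate 1, 2 or 4 or without RBX2iCKO replicate 1, 3 or 4 (adjusted p up to 0.09), and with the title number series as a covariate (adjusted p = 0.0641). The antisense gene Gm16185, at 1.18 FPKM in WT libraries and 1.68 FPKM in RBX2iCKO libraries, overlaps Slc25a36 by 3285 bases. Not called as deposited or after scaling were Slc25a33, the other pyrimidine carrier, at 6.03 FPKM ± 0.593 and 5.89 FPKM ± 1.76, Slc25a32, for folate and FAD, at 3.78 ± 0.389 and 4.22 ± 0.243, and the NAD carrier Slc25a51 at 18.9 ± 0.269 and 20 ± 1.64 (WT, then RBX2iCKO, SD, n = 4 each).

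Among enzymes of mitochondrial folate, glycine and glutamate use, 5 of 13 tested (of 16) rose and 1 fell as deposited, and 1 rose and 4 fell after scaling. Of all tested genes, 33.5% were higher and 3.52% lower as deposited, and 8.78% were higher and 10.9% lower after scaling. Mthfd2, a folate enzyme of dividing and stressed cells, rose 3.21-fold, from 1.18 FPKM ± 0.562 in WT to 3.77 FPKM ± 0.406 (SD, n = 4 each; limma adjusted p = 0.00264), and was the riser after scaling. Amt, of the glycine cleavage system, and Mthfd2l rose as deposited by 1.58-fold and 1.39-fold, with no call on scaled values. The single faller as deposited was Dld, a dehydrogenase subunit shared by the glycine cleavage system and the 2-oxoacid complexes, 1.23-fold lower (adjusted p = 0.0153; scaled log2 -0.55, adjusted p = 0.00354).

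Among amino acid carriers, the glutamate carrier and the muscle-type aspartate/glutamate carrier fell. Of 8 members 6 were tested, with 1 higher and 2 lower as deposited and 0 higher and 2 lower after scaling. Slc25a22, which imports glutamate with a proton, was at 10.1, 11, 13.6 and 14.4 FPKM in WT and at 6.58, 8.24, 10.4 and 6.88 FPKM in RBX2iCKO. RBX2iCKO replicate 3 exceeded WT replicate 1, so the groups overlapped. WT replicates 1 and 2 were below WT replicates 3 and 4, a split that follows the title number series. Slc25a22 fell 1.53-fold (log2 -0.57, SE 0.15, limma adjusted p = 0.0185; scaled log2 -0.8, adjusted p = 0.00609), and it passed with each of the 8 libraries left out (adjusted p up to 0.0477 as deposited). Slc25a12, the calcium-activated aspartate/glutamate carrier of muscle and brain, was at 40.6, 41.3, 42.0 and 39.9 FPKM in WT and at 35.3, 35.9, 33.1 and 36.8 FPKM in RBX2iCKO. Values within each group were close together and did not overlap between groups. It fell 1.16-fold (log2 -0.21, SE 0.06, adjusted p = 0.0223; scaled log2 -0.46, adjusted p = 0.00275), with the call as deposited lost without WT replicate 3 (adjusted p = 0.0572). Its paralog Slc25a13, best known from liver, was at 49.6, 50.5, 54.5 and 52.5 FPKM in WT and at 60.2, 59.6, 55.6 and 66.4 FPKM in RBX2iCKO. Slc25a13 rose 1.17-fold as deposited (log2 0.22, adjusted p = 0.0373) and was at -0.03 after scaling (adjusted p = 0.788). The call as deposited was lost without WT replicate 1, 2 or 4 or without RBX2iCKO replicate 1, 2 or 4 (adjusted p up to 0.0878), and with the title number series as a covariate (adjusted p = 0.0629).

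The ratio of Slc25a12 to Slc25a13, which no scaling of a library changes, was 0.817, 0.819, 0.771 and 0.76 in WT and 0.586, 0.602, 0.595 and 0.554 in RBX2iCKO. Every RBX2iCKO ratio was below every WT ratio. The difference in mean log2 ratio was -0.44 (SE 0.04, two-sided exact permutation p = 0.0286, adjusted p = 0.0571 over 8 pairs), the smallest p that 70 assignments allow.

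The other amino acid carriers did not pass as deposited or after scaling. Slc25a15, an ornithine carrier, was at 4.43 FPKM ± 0.396 in WT libraries and 4.28 FPKM ± 0.265 in RBX2iCKO libraries, and Slc25a38, the glycine carrier needed for heme synthesis, was at 10.2 ± 0.571 and 11 ± 0.605 (SD, n = 4 each). With quantile normalization Slc25a15 was called lower. Slc25a44, the carrier of branched-chain amino acids, was at 6.7 ± 0.566 and 7.48 ± 0.437 (limma adjusted p = 0.166, 0.541 after scaling). Of 8 genes of branched-chain amino acid entry and breakdown, 5 fell and 1 rose as deposited, and 6 fell and 1 rose after scaling. Bckdk, the kinase of the branched-chain dehydrogenase, fell 1.22-fold, as did Dbt, a subunit of that complex, and Ppm1k, its phosphatase, fell 1.42-fold, and these 3 also fell after scaling (log2 -0.52, -0.53 and -0.73). The riser was the plasma membrane transporter Slc7a5, 1.61-fold, which also passed after scaling (adjusted p = 0.0474). The second glutamate carrier Slc25a18 (0.0649 to 0.796 FPKM) and the ornithine carrier Slc25a2 (0 to 0.231 FPKM) were under the filter.

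Of the carriers of di- and tricarboxylates, the abundant oxoglutarate carrier fell and the citrate carrier rose as deposited. In this group 3 of 4 members were tested, with 1 higher and 1 lower as deposited and 0 higher and 1 lower after scaling. Slc25a11, which exchanges oxoglutarate for malate, was at 281, 272, 273 and 266 FPKM in WT and at 213, 244, 218 and 252 FPKM in RBX2iCKO. The WT values lay close together and above every RBX2iCKO value. It fell 1.18-fold (log2 -0.24, SE 0.07, limma adjusted p = 0.0286; scaled log2 -0.49, adjusted p = 0.00366). The first call was lost without any 1 of WT replicates 1, 2, 3 or 4 or without RBX2iCKO replicate 1 or 3 (adjusted p up to 0.0667), and the scaled call held with each of the 8 libraries left out. Its gene overlaps Rnf167, of 15.7 and 15.5 FPKM, by 245 bases on the opposite strand. Slc25a1, the citrate carrier that feeds lipid synthesis, was at 4.22, 3.01, 3.32 and 4.89 FPKM in WT and at 6.0, 7.68, 4.76 and 5.57 FPKM in RBX2iCKO. WT replicate 4 exceeded RBX2iCKO replicate 3. Slc25a1 rose 1.56-fold as deposited (log2 0.53, SE 0.15, adjusted p = 0.0261), and did not pass after scaling (log2 0.32, adjusted p = 0.138), nor as deposited without WT replicate 2 or 3 or RBX2iCKO replicate 1 or 2 (adjusted p up to 0.0702). Slc25a10, the dicarboxylate carrier, was at 6.71 ± 0.476 and 6.97 ± 1.52 FPKM and was not called, and Slc25a21 was under the filter at no more than 0.124 FPKM.

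Slc25a11, Slc25a12 and Slc25a13 are carriers of the malate-aspartate shuttle, which carries reducing equivalents from cytosolic NADH into the matrix. Of 7 enzymes of this shuttle and the glycerol phosphate shuttle, 2 fell and 1 rose as deposited, and 6 fell and 0 rose after scaling. Got1, the cytosolic aspartate aminotransferase, fell 1.34-fold, from 427 FPKM ± 37.0 in WT to 320 FPKM ± 50.8 (SD, n = 4 each; limma adjusted p = 0.018). Mdh1, cytosolic malate dehydrogenase, fell 1.16-fold, from 843 FPKM ± 25.7 in WT to 727 FPKM ± 60.2 (adjusted p = 0.0444). Both also fell after scaling (log2 -0.68 and -0.47). Gpd1l rose 1.33-fold as deposited, with no call on scaled values, while Gpd1, of the glycerol phosphate shuttle, passed after scaling and not as deposited (log2 -0.37, adjusted p = 0.00655).

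Carriers of iron and glutathione showed no call as deposited, against 1 lower after scaling, among 4 members tested. Slc25a39, a glutathione carrier, was at 60.6, 62.5, 61.1 and 60 FPKM in WT and at 58.0, 58.8, 53.2 and 49.5 FPKM in RBX2iCKO. The groups did not overlap but came close together. Its log2 difference was -0.15 (SE 0.07, limma adjusted p = 0.102) as deposited and -0.41 (adjusted p = 0.00575) after scaling, and the scaled call held with each of the 8 libraries left out. Its paralog Slc25a40 was at 3.52 FPKM ± 0.693 in WT libraries and 4.44 FPKM ± 0.606 in RBX2iCKO libraries (adjusted p = 0.116, 0.697 after scaling). The ratio of Slc25a39 to Slc25a40 was 14.2 to 24.3 in WT and 10.1 to 13.7 in RBX2iCKO, without overlap (log2 difference -0.5, SE 0.19, exact permutation p = 0.0286, adjusted p = 0.0571). Without WT replicate 2, the library with the highest ratio, the difference was -0.35. Of the mitoferrins, which import iron, Slc25a28 was at 11.9 ± 2.2 and 13.5 ± 2.6 FPKM and Slc25a37, the erythroid form, at 3.93 ± 0.481 and 4.03 ± 0.414 FPKM, and neither passed. Erythroid markers summed to 200 to 540 FPKM in WT and 341 to 3623 FPKM in RBX2iCKO, with 0 of 5 tested called. Of 22 tested of 24 genes of iron, heme and glutathione handling, 2 rose and 0 fell as deposited, and 0 rose and 9 fell after scaling. The risers were Ftl1, ferritin light chain, 1.36-fold (adjusted p = 0.0133), and Gss, glutathione synthetase, 1.37-fold (adjusted p = 0.0271).

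Slc25a30 rose among the carriers related to uncoupling proteins, whose substrates are less settled. Its levels were 2.72, 3.69, 3.44 and 3.66 FPKM in WT and 5.81, 5.37, 5.8 and 4.81 FPKM in RBX2iCKO. The lowest RBX2iCKO library was above the highest WT library. It rose 1.61-fold (log2 0.56, SE 0.1, limma adjusted p = 0.004). After scaling the log2 difference was 0.35 (adjusted p = 0.039). The scaled call was lost without WT replicate 1, 3 or 4 or RBX2iCKO replicate 1, 2 or 3 (adjusted p up to 0.0958). With quantile normalization in place of scaling Slc25a30 did not pass. Slc25a27 was at 1.63 ± 0.506 and 2.61 ± 0.848 FPKM and Slc25a14 at 0.938 ± 0.208 and 1.26 ± 0.336 FPKM, neither called as deposited or after scaling. Among carriers outside the Slc25a symbols, the uncoupling protein gene Ucp3 fell, from 14.9 FPKM ± 7.5 in WT to 4.43 FPKM ± 0.989 (SD, n = 4 each; adjusted p = 0.00945, and 0.00644 after scaling), whereas Ucp2 was at 21.5 ± 5.13 and 19.6 ± 3.24 FPKM and did not pass. Mtch1, an outer membrane relative, rose 1.45-fold as deposited (adjusted p = 0.0126, and 0.15 after scaling), and Mtch2 passed as lower after scaling and not as deposited (log2 -0.34, adjusted p = 0.00995).

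Members with no settled substrate included an abundant heart transcript. Of 6 such members 3 were tested, with 1 higher and 0 lower as deposited and 0 higher and 1 lower after scaling. Slc25a34 was at 44.1, 46.8, 57.7 and 52.3 FPKM in WT and at 47.0, 53.5, 68.4 and 52.6 FPKM in RBX2iCKO. Replicate 3 was the highest in both groups, the groups overlapped, and Slc25a34 was not called (limma adjusted p = 0.405, 0.534 after scaling). Its close relative Slc25a35 was at 1.81, 1.92, 1.49 and 1.92 FPKM in WT and at 2.32, 2.06, 2.42 and 2.65 FPKM in RBX2iCKO. It rose as deposited without overlap (log2 0.27, adjusted p = 0.0418), was at 0.1 after scaling (adjusted p = 0.497), and as deposited passed only when RBX2iCKO replicate 2 was the library left out (adjusted p from 0.0423 to 0.101 over the 8). With the title number series as a covariate it did not pass (adjusted p = 0.0561). Slc25a46, an outer membrane protein linked to mitochondrial shape, was at 14.1, 15.3, 15.3 and 15.6 FPKM in WT and at 15, 13.4, 13.7 and 15.1 FPKM in RBX2iCKO. It overlapped between groups and passed after scaling and not as deposited (log2 -0.31, adjusted p = 0.0198). The scaled call was lost without WT replicate 2 or RBX2iCKO replicate 2 (adjusted p up to 0.0558), and with mitochondrial-encoded genes removed in place of scaling it did not pass (adjusted p = 0.0553). Under the filter, Slc25a53 was at 0.219 to 0.757 FPKM, Slc25a43 at 0.0386 to 0.297 FPKM with 1 to 8 fragments per library, and Slc25a54 was listed at 0 in 7 libraries.

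Across the 8 pairs of related carriers, 4 had ratios that did not overlap between the groups. Each of the 4 had a two-sided exact permutation p of 0.0286 and an adjusted p of 0.0571, so 0 of 8 passed at 0.05 after adjustment. That p is the smallest that 70 assignments allow. With 4 of 8 pairs at it none could pass, however large its shift. Beside the pairs given above, the ratio of Slc25a23 to Slc25a24 was 5.06, 5.48, 4.33 and 4.87 in WT and 5.64, 5.97, 8.67 and 5.68 in RBX2iCKO, a log2 difference of 0.38 (SE 0.16). Without RBX2iCKO replicate 3 that difference was 0.23. The remaining pairs, Slc25a28 to Slc25a37, Slc25a33 to Slc25a36, Slc25a20 to Slc25a29 and Slc25a34 to Slc25a35, overlapped between groups, with log2 differences of 0.15 (SE 0.13), -0.35 (SE 0.25), -0.51 (SE 0.28) and -0.27 (SE 0.2). Leaving out 1 library took the first to 0.08 (without WT replicate 2), the second to -0.18 (without RBX2iCKO replicate 1) and the last to -0.12 (without WT replicate 3).

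**Figure D4:**
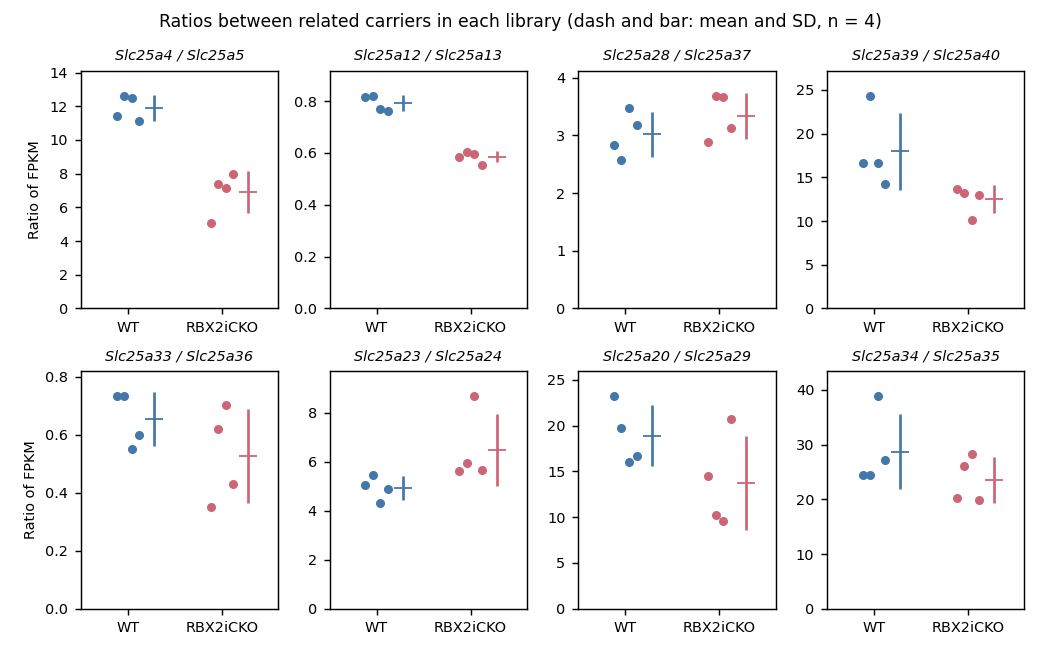
Ratio of FPKM between related carriers in each library, with the mean and SD (n = 4) beside the points. The RBX2iCKO ratios lie below all WT ratios for Slc25a4 to Slc25a5, Slc25a12 to Slc25a13 and Slc25a39 to Slc25a40, and above them for Slc25a23 to Slc25a24.

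Membrane transporters of mitochondria that belong to other families gave a background for the carriers. Of 22 tested of 23, 5 rose and 1 fell as deposited, and 1 rose and 8 fell after scaling. Tspo, an outer membrane protein, rose 2.17-fold, from 32.3 FPKM ± 5.88 in WT to 70.3 FPKM ± 8.71 (SD, n = 4 each; limma adjusted p = 0.00157), and was the riser after scaling. Micu2, which gates the calcium uniporter, rose 1.22-fold, and Slc8b1, the sodium-calcium exchanger of mitochondria, rose 1.41-fold, with no call for either on scaled values. Abcb8, an inner membrane ABC transporter, fell 1.22-fold as deposited (adjusted p = 0.0227) and also fell after scaling (adjusted p = 0.00381). The median of this list was 0.15 as deposited and -0.05 after scaling. The medians of the other gene lists were, as deposited and then scaled, -0.02 and -0.27 for partners of ADP/ATP exchange, 0.13 and -0.1 for folate and glutamate enzymes, -0.28 and -0.53 for branched-chain amino acid entry, -0.07 and -0.33 for the shuttles, and -0.11 and -0.35 for carriers with other symbols. For iron, heme and glutathione handling the scaled median was -0.25. Each list's scaled median was below the 0.02 of all tested genes.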

How the data were processed

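RNA from minced ventricles was sequenced in 4 WT and 4 RBX2iCKO libraries. The authors deposited FPKM per Ensembl gene, from an mm10 genome per the submitters' processing notes. The aligner, counter, annotation release and strandedness were not given in the sources used here. Of 35275 gene IDs, 34490 (97.8%) matched GENCODE M21, which gave symbols, gene types and coordinates. Each FPKM came out as a whole number of fragments, within 0.01, for 99.9% of tested genes, and 1 fragment in a gene of 1 kb was worth 0.0434 to 0.054 FPKM, which sets the precision of low values.

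Genes with a mean of at least 0.5 FPKM over the 8 libraries (13050) were tested with limma 3.58.1 (trend) in R 4.3.3 on log2(FPKM + 1), two-sided, with Benjamini-Hochberg adjustment over all of them and a threshold of 0.05. Log2 differences are on this scale, which understates changes of low genes, and folds are ratios of mean FPKM. FPKM shares the total among all genes, so the fit was repeated after median-of-ratios scaling over the tested genes ("scaled"). Ratios of 8 carrier pairs were tested by exact permutation over 70 assignments. Python 3.11.15, scipy 1.17.1 and matplotlib 3.10.9 were used, and the fit was tested on simulated data. Alternatives were other pseudocounts and filters, quantile normalization, removal of mitochondrial-encoded genes, robust and array-weighted fits, a covariate for the number series in the titles, voom on recovered fragments, and leaving out each library.

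All members enter the counts, but 1 tested member and 2 genes of other lists are not reported here. Values in every library are given for the other called members and the most abundant member of each substrate group, and from other lists up to 4 genes of smallest p plus any lone call are named. Members, lists and tests were chosen with earlier results of these data known. The labels speak of 4 ventricles per genotype without naming separate mice, so p-values measure only the spread between these samples.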

Additional observations from a re-analysis of the deposited data

Results flagged for a closer look

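Of 92 sets of 4 values examined (each tested carrier and each carrier ratio in each group), 3 held a library that stood far from the other 3 of its group, where chance would give about 5. Slc25a4 was at 1413 FPKM in RBX2iCKO replicate 1, against 1946 to 2030 FPKM in the other RBX2iCKO libraries. Without that library its log2 difference was -0.08 as deposited and -0.33 after scaling. Slc25a15 was at 3.89 FPKM in RBX2iCKO replicate 3, against 4.38 to 4.47 FPKM. The ratio of Slc25a23 to Slc25a24 was 8.67 in RBX2iCKO replicate 3, against 5.64 to 5.97.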

How the results depend on the processing

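The counts of calls moved with the scaling, the covariate and the library left out. Higher members numbered 10 as deposited, 4 after median-of-ratios scaling, 2 after quantile normalization, 4 with mitochondrial-encoded genes removed, 6 with the title number series as a covariate, 3 with voom on recovered fragments and scaling, and 3 with scaling and that covariate. The 2 of quantile normalization were Slc25a5 and Slc25a23. Lower members numbered 7 as deposited and 11 under scaling, quantile normalization, scaled voom and scaling with the covariate. The 11 of quantile normalization were not those of scaling, since they held Slc25a15 and lacked Slc25a4. All genes higher numbered 4374 as deposited and 1146, 864, 1266, 1127 and 1095 under scaling, quantile normalization, mitochondrial removal, scaled voom and scaling with the covariate, and all genes lower numbered 459 against 1419, 1241, 988, 1429 and 1341. Scaled voom and scaling with the covariate were chosen after seeing the data.

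With 1 library left out, higher members numbered 5 to 8 as deposited and 2 to 4 scaled, and lower members 3 to 6 and 9 to 11. All genes higher numbered 2895 (without WT replicate 2) to 4386 as deposited and 677 to 1367 scaled, and all genes lower 327 to 452 and 979 to 1463. Slc25a13, 0.22 as deposited, was at -0.03 scaled, -0.03 with scaled voom, -0.04 with scaling and the covariate, and with 1 library left out -0.09 to -0.02 where scaled and reversed and up to 0.26 as deposited. Slc25a36, 0.25 as deposited and up to 0.31 with 1 library left out, was at -0.02 scaled without WT replicate 1, WT replicate 4 or RBX2iCKO replicate 4. No paired analysis was possible because the titles carry no replicate numbers shared between the groups. Members under a mean of 0.5 FPKM are given as levels, with no test reported.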
